A study of Mus musculus with 6 samples.

Results

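The genes described here are 10 immediate early genes: Egr1, Egr2 and Egr3 of the EGR family, Nr4a1, Nr4a2 and Nr4a3 of the NR4A family, the response genes Ier2, Ier3 and Ier5, and Csrnp1. They were taken by gene symbol, 10 of the 47729 genes counted, and they were chosen from the difference between leene-KO and WT libraries seen in an earlier look at the same data. The difference between KO and WT in these genes is therefore given as a description and supports nothing by itself. RNA was sequenced from lung endothelial cells (ECs) in 3 WT and 3 KO libraries. All mice were male, 14 weeks old, fed normal chow and infused with angiotensin II (AngII) at 1000 ng/kg/min by osmotic pump for 2 weeks, so both groups carried the hypertensive stimulus and no library analysed here came from mice without it. In KO mice, on the C57BL6 background, CRISPR-Cas9 had removed the region of the long noncoding RNA leene and of a pair of neighboring ones, and the deletion was not restricted to ECs. Lungs were digested with collagenase and ECs were enriched with magnetic beads. The labels name CD31 as the surface protein and pooled cells of 3 mice in a group, whereas the methods name CD144, so the sources do not show if 1 library stands for 1 mouse or for several.

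Immediate early genes are transcribed within minutes of a stimulus, without new protein synthesis, by factors already present in the cell. SRF with its ELK partners acts at CArG boxes, and CREB with its relatives acts at cyclic AMP response elements (CREs), once kinases such as ERK and its downstream kinases have phosphorylated them. Many of the transcripts decay quickly through AU-rich elements in the 3′ UTR. EGR proteins are zinc finger transcription factors restrained by the corepressors NAB1 and NAB2. NR4A proteins are orphan nuclear receptors that bind DNA as monomers or with RXR. In ECs both families respond to growth factors, thrombin, inflammatory cytokines and blood flow.

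RefSeq promoter windows (GRCm38.p6, 250 bases before to 50 bases after a transcript start) were found for 7 of the 10 genes, in 14 windows. No window was found for Egr1, Egr3 and Ier2. The CRE core TGACG, read on both strands, was the motif that recurred most. It was in 10 of the 14 windows and in 5 of the 7 genes, against 20.8% of all 32851 windows and 23.0% of all 27025 genes with a window. Egr2 and Csrnp1 have several windows each, and overlapping windows of Egr2 hold the same cores, so the windows are not independent. The single windows of Nr4a1, Nr4a2 and Nr4a3 held 4 cores each, a number reached or passed by 76 windows (0.231%) in the whole table. The 14 windows had a median of 59.8% G and C, against 52.7% over all windows. Nr4a1 had 72.3%, Nr4a2 81.7% and Nr4a3 64.7%. The shares above were not adjusted for base composition. The windows of the NR4A genes are printed to show these sites, beside the windows of Egr2 and Csrnp1 with the most motif matches for contrast. They are chr15:101266596-101266895 (plus strand) for Nr4a1, chr2:57123954-57124253 (minus strand) for Nr4a2, chr4:48045055-48045354 (plus strand) for Nr4a3, chr10:67537619-67537918 (plus strand) for Egr2 and chr9:119982974-119983273 (minus strand) for Csrnp1. Each is printed 5′ to 3′ on the strand of its gene. Capitals mark CRE cores, the CArG box of Egr2, which lies between its cores, and the AP-1 sites of Csrnp1 (TGANTCA, the site bound by FOS and JUN pairs).
Nr4a1: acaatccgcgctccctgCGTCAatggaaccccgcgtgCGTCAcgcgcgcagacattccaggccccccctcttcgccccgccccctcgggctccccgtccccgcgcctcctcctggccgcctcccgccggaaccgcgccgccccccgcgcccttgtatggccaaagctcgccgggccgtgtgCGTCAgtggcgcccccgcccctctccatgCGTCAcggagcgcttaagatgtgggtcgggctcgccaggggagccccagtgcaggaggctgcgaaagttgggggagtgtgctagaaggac
Nr4a2: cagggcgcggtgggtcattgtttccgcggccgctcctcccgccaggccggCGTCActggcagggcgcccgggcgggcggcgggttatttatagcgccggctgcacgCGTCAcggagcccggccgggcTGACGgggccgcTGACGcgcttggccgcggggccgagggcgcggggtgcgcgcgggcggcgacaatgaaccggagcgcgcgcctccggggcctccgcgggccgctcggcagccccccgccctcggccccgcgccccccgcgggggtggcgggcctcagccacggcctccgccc
Nr4a3: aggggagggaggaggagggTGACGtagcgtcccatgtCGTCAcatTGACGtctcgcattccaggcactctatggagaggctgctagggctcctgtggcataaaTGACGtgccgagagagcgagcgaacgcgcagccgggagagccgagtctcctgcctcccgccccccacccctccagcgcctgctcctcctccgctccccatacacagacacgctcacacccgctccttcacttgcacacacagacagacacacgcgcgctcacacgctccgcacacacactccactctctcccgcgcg
Egr2: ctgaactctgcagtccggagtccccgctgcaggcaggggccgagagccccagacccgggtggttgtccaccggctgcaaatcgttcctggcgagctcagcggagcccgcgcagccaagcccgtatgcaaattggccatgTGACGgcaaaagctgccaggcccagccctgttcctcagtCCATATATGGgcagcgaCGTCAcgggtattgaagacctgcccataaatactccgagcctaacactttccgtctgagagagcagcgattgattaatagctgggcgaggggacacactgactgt
Csrnp1: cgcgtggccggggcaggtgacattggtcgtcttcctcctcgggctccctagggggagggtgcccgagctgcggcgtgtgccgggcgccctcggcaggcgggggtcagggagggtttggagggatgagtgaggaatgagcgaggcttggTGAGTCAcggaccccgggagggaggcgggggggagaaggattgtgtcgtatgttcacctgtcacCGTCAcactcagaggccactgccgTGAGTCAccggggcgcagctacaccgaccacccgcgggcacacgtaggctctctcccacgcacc

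**Figure D1:**
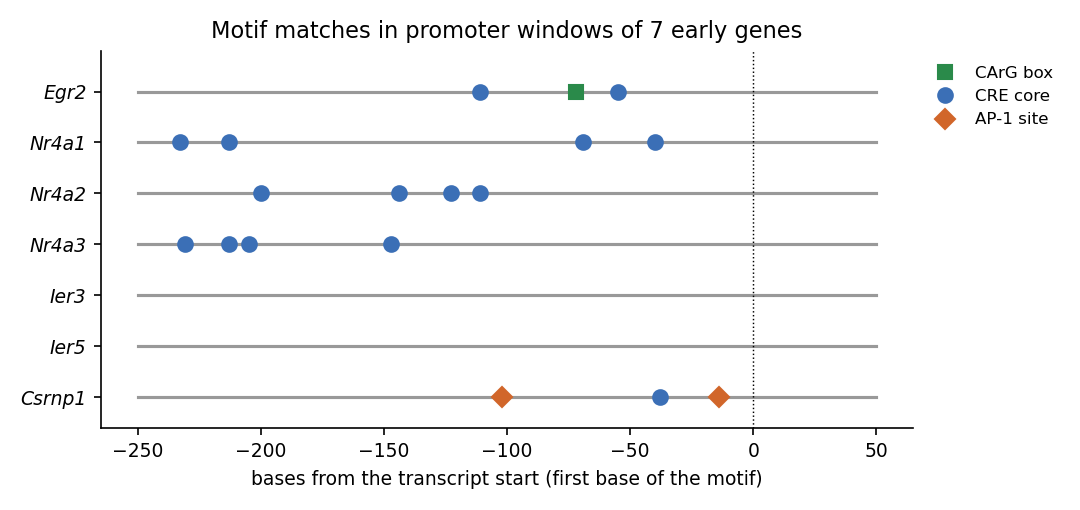
The plot places the motif matches on the promoter windows of 7 early genes, with the distance in bases from the transcript start on the horizontal axis and 1 line for the window of each gene with the most matches. The 3 NR4A genes carry 4 CRE cores each, Egr2 a CArG box between 2 cores, Csrnp1 2 AP-1 sites and 1 core, and Ier3 and Ier5 none of the motifs searched.

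In Nr4a3 the cores began 231, 213, 205 and 147 bases before the start, in Nr4a2 200, 144, 123 and 111 bases before it, and in Nr4a1 233, 213, 69 and 40 bases before it. Nr4a1 has longer annotated transcripts, and this window lies inside the span of the gene. The CArG box was in 4 of the 5 Egr2 windows, of which 3 overlap, and in no window of another of these genes, against 1.63% of all windows. The 4 windows of Csrnp1 each held 1 or 2 cores, and 1 of them held 2 AP-1 sites, a motif present in 7.81% of all windows. The full CRE (TGACGTCA, 1.79% of all windows), the EGR site GCGTGGGCG (0.612%), the NR4A monomer site AAAGGTCA (1.51%), the pair of heat shock units GAANNTTC (7.86%) and, on the gene strand, the TATA sequence TATAAA (8.32%) were in none of the 14 windows. The full CRE holds the core, and the other motifs do not. These are matches of letters in a short window and say nothing of binding.

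The 6 libraries held 24464324 to 35184063 counts, of which mitochondrial genes took 37.4% to 54.5%. Counts are given here as CPM, which are counts scaled to library size with edgeR's TMM factors. A gene was called when its adjusted p from the edgeR fit was under 0.05 over all 14625 genes that passed the filter on low counts. All 10 early genes passed that filter, Egr3 mainly through its WT libraries (38, 34 and 17 counts, against 4, 16 and 6 in KO). The test called 11 genes lower in KO (0.0752% of those tested) and 5 higher (0.0342%), and the balance turned to 131 lower and 660.0 higher without WT replicate 2 and to 65 lower and 87 higher without the filter. It was 62 to 61 with total counts and 98 to 87 with DESeq2. The 10 EC markers summed to 1635, 2146 and 3055 CPM in WT and to 3223, 1953 and 2583 CPM in KO, with overlap. Their log2 fold changes were positive for 8 and negative for 2. Only Kdr (0.87, not called) was higher in every KO library than in any WT library, as were 8.59% of all genes tested. Markers of other lung cells were abundant too, with 15362 to 56788 CPM for 4 airway markers. The 5 alveolar type II markers summed to 4934, 46390.3 and 14404 CPM in WT and to 36707, 44951 and 36566 CPM in KO, so that WT replicates 1 and 3 lay below every KO library and WT replicate 2 above them. B cell markers summed to 6.63 to 15.8 CPM in WT and 54.8 to 59.8 CPM in KO. All 5 were higher in every KO library than in any WT library, an arrangement found in 8.59% of all genes tested. Of the 5, Cd79a and Ms4a1 were called. T cell markers summed to 2.62 to 4.45 CPM in WT and 6.69 to 9.20 CPM in KO, with 4 of 6 higher in every KO library. Platelet markers summed to 26.2 to 40.2 CPM in WT and 37.4 to 72.3 CPM in KO, with 3 of 4 higher in every KO library (against the same 8.59%). The planned list of 6 smooth muscle and pericyte markers summed to 189, 184 and 221 CPM in WT and 154, 142 and 193 CPM in KO, with overlap. It was split after its values were seen. The 4 smooth muscle markers then summed to 163, 132 and 149 CPM in WT and 76.2, 85.5 and 102 CPM in KO without overlap. Tagln (log2 fold change -1.06) and Acta2 (-0.53), neither called, were higher in each WT library than in any KO library. Such an arrangement was found in 9.20% of all genes tested. Myh11 (-0.34) and Cnn1 (-0.40) overlapped between the groups, and the pericyte markers Pdgfrb (0.60) and Cspg4 (0.54) had positive values. The sums of macrophage, neutrophil, fibroblast, pericyte and red cell markers overlapped between the groups. The part of these cells in the values below was not tested, and fewer cells of a type cannot be told apart from less RNA in each cell.

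Across the 10 genes, 9 had a negative log2 fold change in KO and 1 a positive one, with a median of -0.76, while the median over all genes tested was 0.03. Without WT replicate 2 the median of the early genes was -0.53, and without WT replicate 1 it was -0.87. Every WT library lay above every KO library for 6 of them (Egr2, Egr3, Nr4a1, Nr4a3, Ier5 and Csrnp1), an arrangement found in 9.20% of all genes tested, and no early gene had every KO library above every WT library, an arrangement found in 8.59%. Only Csrnp1 was called. DESeq2, the tool of the study, called 3 of the 10 lower (Nr4a1, Nr4a3 and Csrnp1) and 0.594% of the 16505 genes for which it gave an adjusted p. Since the genes were selected on this contrast, these counts describe the selection. They include Egr3, which passed the filter on low counts mainly through WT. Where 10 counts were asked of every library Egr3 dropped out, and 8 of 9 genes were negative with a median of -0.71. The summed level of the 10 genes was 199, 206 and 175 CPM in WT replicates 1, 2 and 3 and 118, 141 and 154 CPM in KO replicates 1, 2 and 3, so the groups did not overlap in this sum either.

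**Figure D2:**
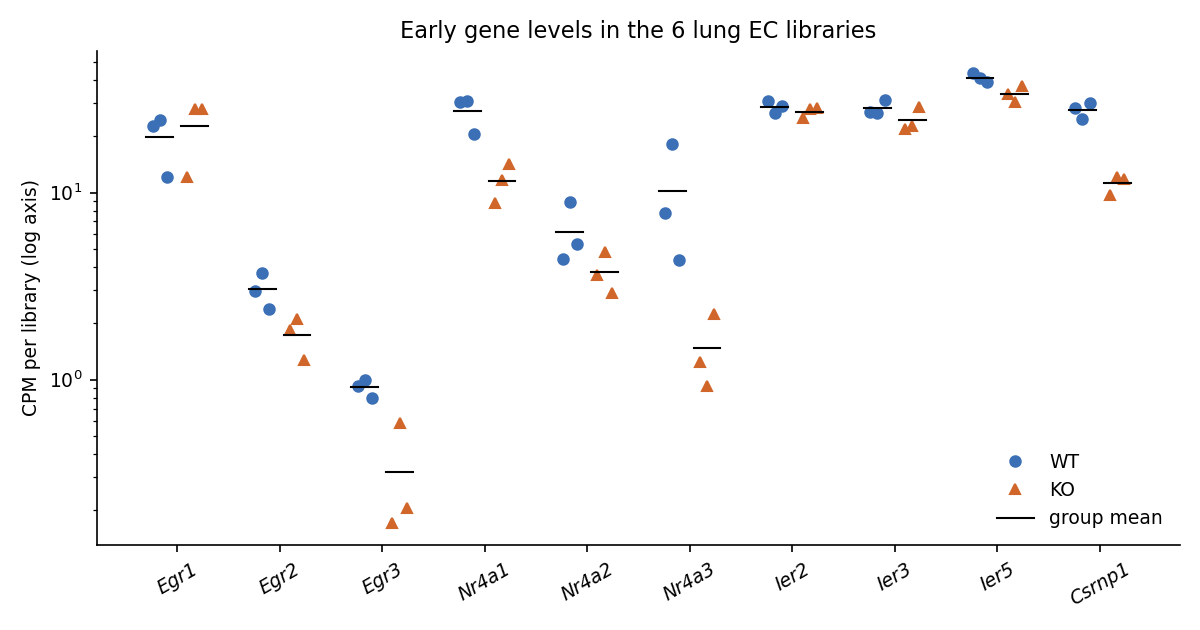
The plot gives the CPM of each early gene in each library on a log axis, with circles for the 3 WT libraries, triangles for the 3 KO libraries and a line at each group mean. Nr4a3 spans the widest range, from 0.920 CPM in KO replicate 2 to 18.3 CPM in WT replicate 2, whereas Ier2 stays between 25.1 and 30.7 CPM in all 6 libraries.

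Of the 10 genes, Nr4a3 had the lowest KO level relative to WT. Nr4a3 (NOR1; chromosome 4, 48045153 to 48086447, plus strand, GRCm38) was at 7.78, 18.3 and 4.35 CPM in WT (in the order of the replicate numbers, as in all values below), against 1.25, 0.920 and 2.24 CPM in KO. All WT libraries were high and all KO libraries low, but the WT libraries differed among themselves with a coefficient of variation of 71.5%. The log2 fold change was -2.78 (standard error 0.57), a fitted fold of 6.87 in favor of WT, and only 1 of the 14625 genes tested had a lower one. Leaving out WT replicate 2, the highest library, gave -2.09, and leaving out KO replicate 3 gave -3.23, the ends of the range.

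Nr4a1 (NUR77; chromosome 15, 101254269 to 101274795, plus strand) was at 30.3, 30.7 and 20.6 CPM in WT, against 8.81, 11.7 and 14.2 CPM in KO. The lowest WT library, replicate 3, was still above the highest KO library. The log2 fold change was -1.23 (standard error 0.23), between -1.42 and -1.09 with any 1 library left out. Nr4a2 (NURR1; chromosome 2, 57106830 to 57124003, minus strand) was at 4.41, 8.87 and 5.29 CPM in WT, against 3.61, 4.82 and 2.90 CPM in KO. Here the groups overlapped, since KO replicate 2 was above WT replicate 1. The log2 fold change was -0.71 (standard error 0.32), and it was -0.39 without WT replicate 2, again the highest library. Summed over the 3 receptors the level was 42.5, 57.8 and 30.2 CPM in WT and 13.7, 17.4 and 19.4 CPM in KO.

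Csrnp1 encodes a cysteine- and serine-rich nuclear protein (AXUD1). It lies on chromosome 9 from 119971163 to 119984658 on the minus strand. It was at 28.4, 24.7 and 30.2 CPM in WT, against 9.67, 12.1 and 11.9 CPM in KO, and the libraries within each group were close, with coefficients of variation of 10.2% in WT and 12.0% in KO. The log2 fold change was -1.31 (standard error 0.15), a fitted fold of 2.47 in favor of WT. It stayed between -1.42 and -1.23 when any 1 library was left out. Its call was lost without WT replicate 3 (adjusted p = 0.107, edgeR). Leaving out a KO library took it away too (0.199, 0.186 and 0.238 without replicates 1, 2 and 3), and edgeR then called no gene of the whole table (0 genes, with 992, 986 and 1112 at an unadjusted p under 0.05). The span of Csrnp1 lies in that of Cx3cr1 on the same strand, but the counted exons of the pair share 0 bases. Cx3cr1 was at 1.47 to 3.49 CPM in WT and 4.23 to 5.50 CPM in KO, so its KO libraries were the higher ones.

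The EGR genes differed in sign. Egr2 (chromosome 10, 67535475 to 67542188, plus strand), known for its part in myelination and lymphocyte tolerance, was at 2.99, 3.73 and 2.39 CPM in WT, against 1.85, 2.10 and 1.28 CPM in KO. The groups did not overlap, but WT replicate 3 and KO replicate 2 were neighbors. The log2 fold change was -0.81 (standard error 0.30). Egr3 (chromosome 14, 70077203 to 70082614, plus strand), a close relative of Egr2, was low throughout, at 0.930, 0.998 and 0.796 CPM in WT and 0.172, 0.589 and 0.207 CPM in KO. These rest on 38, 34 and 17 counts in WT and 4, 16 and 6 counts in KO, and the log2 fold change of -1.48 (standard error 0.56) is correspondingly uncertain. Without KO replicate 2 it was -2.26. The exons counted for Egr3 cover 35.9% of its GENCODE transcript, missing most of the 3′ UTR, so its level is also understated. For the other 9 genes the counted exons covered at least 92.0% of the transcript.

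Egr1 (chromosome 18, 34859823 to 34864984, plus strand), the founding member of the family and a rapid sensor of vascular injury, was at 22.8, 24.5 and 12.2 CPM in WT, against 12.1, 28.1 and 28.0 CPM in KO. The groups overlapped fully, and the low libraries, WT replicate 3 and KO replicate 1, came from either genotype. The log2 fold change was 0.20 (standard error 0.37), and it took a negative sign without WT replicate 3 (-0.070) and without KO replicate 2 (-0.0088). The 2 low libraries also had the highest mitochondrial shares, 54.5% and 46.2% against 37.4% to 40.4% in the other 4, and the highest summed EC markers, 3055 and 3223 CPM against 1635 to 2583 CPM. The part of these in the Egr1 level was not tested.

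The IER genes had fold changes near 0. Ier2, which encodes a nuclear protein, is a single-exon gene on chromosome 8 from 84661331 to 84662852 (minus strand). It was at 30.7, 26.7 and 28.8 CPM in WT, against 25.1, 27.9 and 28.3 CPM in KO. Its log2 fold change was -0.09 (standard error 0.12). Ier3 (IEX-1; chromosome 17, 35821684 to 35822923, plus strand), a regulator of stress-induced cell death, was at 27.0, 26.5 and 31.3 CPM in WT, against 21.8, 22.6 and 28.6 CPM in KO. Its log2 fold change was -0.22 (standard error 0.15). The groups overlapped for both genes. Ier5 (chromosome 1, 155096361 to 155099636, minus strand), which encodes a partner of heat shock factor 1, was at 43.4, 40.9 and 39.1 CPM in WT, against 33.7, 30.6 and 36.9 CPM in KO. The groups did not overlap, but the distance was small (log2 fold change -0.29, standard error 0.12). With total counts in place of TMM the median log2 fold change of all genes shifted to -0.13, and those of Ier2 and Ier5 became -0.27 and -0.46.

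**Figure D3:**
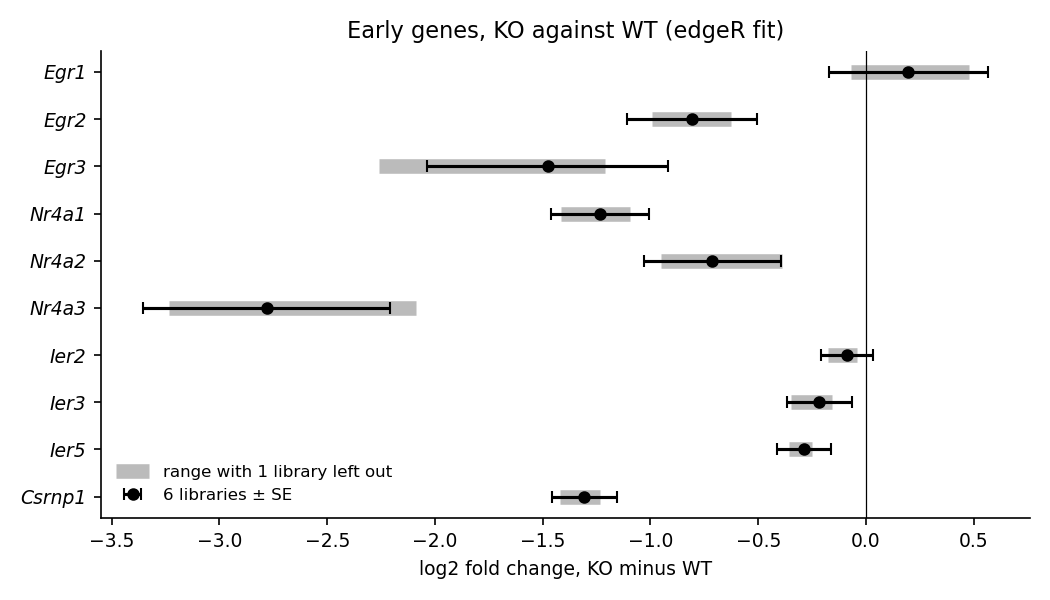
The plot gives the log2 fold change of each early gene, KO minus WT, with its standard error from the edgeR fit of 6 libraries, and a grey band for the range when any 1 library is left out. The bands of all genes except Egr1 stay below 0, from -3.23 to -2.09 for Nr4a3 to -0.18 to -0.04 for Ier2, and the band of Egr1 runs from -0.07 to 0.48.

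Levels of different genes were compared per kilobase of counted exon. In WT the order was Ier3 (25.0 CPM per kb), Ier2 (18.9), Ier5 (12.6), Nr4a1 (11.0), Csrnp1 (9.68), Egr1 (4.42), Nr4a3 (1.69), Nr4a2 (1.52), Egr2 (0.893) and Egr3 (0.641), each a mean of 3 libraries in CPM per kb. The libraries of Ier3 were all above those of Ier2, those of Ier2 above those of Ier5, and those of Csrnp1 above those of Egr1. The other neighbors in this order overlapped. In KO the mean of Nr4a1 was 4.67, that of Csrnp1 3.91 and that of Egr1 5.07 CPM per kb, and neighbors among the 3 overlapped. Nr4a3 was at 0.245 and Egr3 at 0.228 CPM per kb in KO, next to each other at the bottom. The IER genes kept the first 3 places in both groups, at 21.5, 17.8 and 10.3 CPM per kb in KO for Ier3, Ier2 and Ier5.

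Within a genotype the 10 genes varied together only in part. Over the 45 pairs, Pearson's r of log2 CPM across the 6 libraries ran from -0.10 to 0.94 with a median of 0.61, which includes the difference between the groups. After each group mean was subtracted, r ran from -0.91 to 0.94 with a median of 0.22, and 31 of the 45 pairs were positive. These values rest on 6 libraries, in which all genes share the depth and cell composition of the library, and are descriptions. KO replicate 1 was the lowest library for 6 of the 10 genes, and WT replicate 2 the highest for 5. On the log2 CPM scale, WT replicate 2 deviated from the WT mean by 1.09 for Nr4a3, 0.58 for Nr4a2 and -0.10 for Ier2. Against the mean over 6 libraries, which includes the difference between the groups, it was 2.38 above for Nr4a3 and 0.91 above for Nr4a2, but 0.06 below for Ier2.

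**Figure D4:**
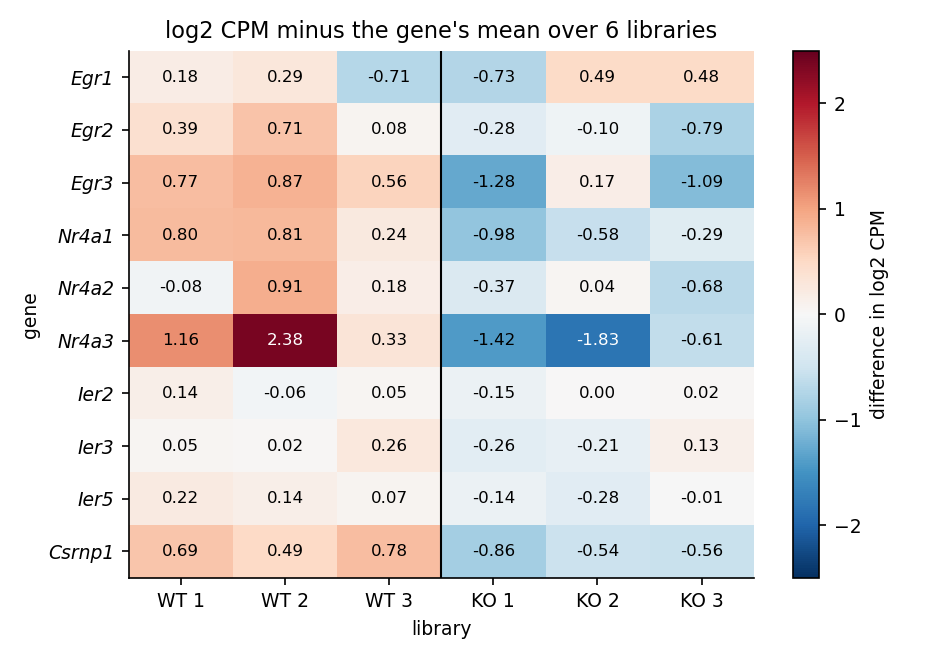
The heat map gives, for each early gene (rows) and library (columns), log2 CPM minus the mean of that gene over 6 libraries, with WT to the left of the line and KO to the right. Csrnp1 and Nr4a1 are above 0 in all 3 WT libraries and below 0 in all 3 KO libraries, whereas Egr1 is lowest in WT replicate 3 (-0.71) and KO replicate 1 (-0.73).

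Among 11619 other genes with a mean log2 CPM above 1, the profile over 6 libraries most like the mean standardized profile of the early genes was that of Mrps25 (r = 0.999), followed by Dap3, Ahsa1, Snx4 and Nfe2l2 (r of 0.986 or more). Mrps25 was at 11.8, 12.0 and 10.9 CPM in WT and 7.95, 9.05 and 9.24 CPM in KO, a much narrower spread than that of the NR4A genes. None of the 5 was called, and their log2 fold changes lay between -0.70 (Ahsa1) and -0.21 (Dap3). By deviations from the group means alone, the most alike genes were Nat2 (r = 0.999), Snhg18, Rpusd1, Cygb and Maats1 (r of 0.994 or more), which like Egr1 were low in WT replicate 3 and KO replicate 1. With 6 libraries and this many genes such values of r are descriptions.

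The early genes were not chosen by their structure, and not all of them shared the features below. Their median span was 6063 bases, against 25052 for 13667 protein-coding genes tested, and their median number of exons 2 against 9. Ier2 and Ier5 have a single exon, as do 2.17% of those genes, whereas the NR4A genes have 8 exons each and spans of 17174 bases or more. The 3′ UTR of the early genes held a median of 2.38 AU-rich pentamers (ATTTA) per kb, against 1.31 over 12830 genes with a 3′ UTR of at least 100 bases. Ier3 had the most, 8.16 per kb, whereas Ier5 had 0.933 per kb, below the median of all genes, and Ier2 had none. The longer element TATTTAT was in 4 of the 10 (Nr4a2, Nr4a3, Ier3 and Csrnp1), against 28.9% of genes. Ier3 holds 4 copies of it, Nr4a3 holds 2, and Nr4a2 and Csrnp1 hold 1 each.

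Of the regulators that act on these genes, none was called with all 6 libraries. Over all genes, edgeR called 0.0752% lower and 0.0342% higher, and DESeq2 called 0.594% lower. At such shares 0 calls are usual in lists this short. The 15 upstream transcription factors had a median log2 fold change of -0.03, with 0 calls by edgeR or DESeq2 and 1 unadjusted p under 0.05 in the edgeR fit, a value that 1506 of the 14625 genes tested (10.3%) reached. Srf was at 33.0 to 36.7 CPM in WT and 25.9 to 32.8 CPM in KO. Crem, a CREB relative whose short form represses CRE promoters, had the lowest value, -0.56 (standard error 0.18), with WT at 21.9 to 34.4 CPM and KO at 17.2 to 20.5 CPM. Without WT replicate 2 edgeR called Crem (adjusted p = 0.0396), among 791 genes called in that setting. Crtc1 (a CREB coactivator) and Mef2c (a factor downstream of ERK5) had the highest, 0.36 and 0.33. The 13 upstream kinases had a median of -0.09, with 0 calls by either tool and 0 at an unadjusted p under 0.05, and Rps6ka5 (0.31), Map2k1 (-0.18) and Mapk7 (-0.17) lay farthest from 0. The 9 genes of AU-rich mRNA decay and stability had a median of -0.09, with 0 calls by either tool and 1 unadjusted p under 0.05. Zfp36, listed here and among the other early genes below, was at -0.15 (standard error 0.12). Elavl1, which encodes the stabilizing protein HuR, was at -0.37 (standard error 0.12), Khsrp at -0.18 and Cnot1 at -0.16. These counts cover transcript levels and not phosphorylation, on which most of these proteins depend.

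Partners, paralogs and targets were not called by edgeR or DESeq2 either, and 0 of them had an unadjusted p under 0.05. EdgeR called 0.0752% of all genes tested lower and 0.0342% higher, so 0 calls are usual in lists this short. Of 5 cofactors, 4 were tested (Rxrg was not), and the median was -0.09. The values were -0.20 for Rxrb, -0.10 for Nab1 and -0.09 for Rxra, and Nab2, itself an EGR1 target, was at 11.8 to 14.0 CPM in WT and 12.0 to 13.2 CPM in KO. Among 4 paralogs, Csrnp2 (-0.08) and Ier5l (-0.03) were tested, Egr4 had no counts in any library and Csrnp3 at most 2. The 11 known EGR1 targets had a median of 0.12, with 3 negative and 8 positive values. Plau (urokinase) was at 0.67, Cd44 at 0.52 and Pdgfa at 0.25. Their groups overlapped for all 11 genes.

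The lists of other early genes and of AP-1 genes were fixed with earlier results of these data known, so their values are descriptions. Other early genes mostly gave values of the same sign as the NR4A genes. Of 36 listed genes outside the families, 35 were tested (Arc was not), 32 were negative, 20 had no overlap with WT higher (against 9.20% of all genes tested), and the median was -0.52. EdgeR called 1 of the 35 and DESeq2 11, against 0.0752% and 0.594% of all genes called lower. An unadjusted p under 0.05 was reached by 21 (10.3% of all genes tested did). The call was Maff, a small MAF transcription factor, which fell from 50.5, 52.8 and 47.2 CPM in WT to 18.7, 17.8 and 21.8 CPM in KO (log2 fold change -1.37, standard error 0.13, edgeR adjusted p = 0.0188). It was not called without KO replicate 1 (adjusted p = 0.146), 2 (0.128) or 3 (0.159). Cebpd, a C/EBP factor, was at -1.51 (standard error 0.20) and Nfil3, a bZIP repressor, at -1.45 (standard error 0.35). EdgeR called neither, and DESeq2 called both (adjusted p = 3.77e-08 and 0.0176). Gadd45a, a growth arrest gene, had the only KO libraries all above WT, at 6.07 to 6.97 CPM against 3.89 to 4.93 CPM (log2 fold change 0.59). Of 8 AP-1 genes 7 were tested (Fosl1 was not), and all 7 were negative with a median of -0.41. EdgeR called 0 of them and DESeq2 called 2 (Atf3 and Fosl2), against the same 0.594% of all genes. An unadjusted p under 0.05 was reached by 5 (against the same 10.3% of all genes). Atf3, which like Nr4a3 is induced by stress, was at 11.5, 14.0 and 14.6 CPM in WT and 4.90, 2.32 and 3.52 CPM in KO (log2 fold change -1.90, standard error 0.27). Fosl2 was at -0.89 and Fosb at -0.82.

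Heat shock genes, measured beside the early genes as a sign of cell stress, were a list fixed with earlier results of these data known. They had 12 of 12 negative values and a median of -1.33. Every WT library lay above every KO library for all 12, an arrangement found in 9.20% of all genes tested. Calls were made for 3 of them, Hspa1b (-3.37, adjusted p = 0.0188), Hsph1 (-2.17, adjusted p = 0.0099) and Hspb1 (-1.53, adjusted p = 0.0276), with p-values from the same edgeR fit. DESeq2 called 9 of the 12. Over all genes, edgeR called 0.0752% lower and DESeq2 0.594%. Reads of Hspa1b and its near copy Hspa1a (-2.64, not called by edgeR and called by DESeq2) are hard to assign. The 12 genes summed to 2220.1, 1757 and 2477 CPM in WT and 986, 996 and 921 CPM in KO. No call remained in any of these lists when any 1 KO library was left out, and Hspb1 was not called without WT replicate 3 (adjusted p = 0.0659). The part of the heat shock gene difference in the early gene values was not tested.

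**Figure D5:**
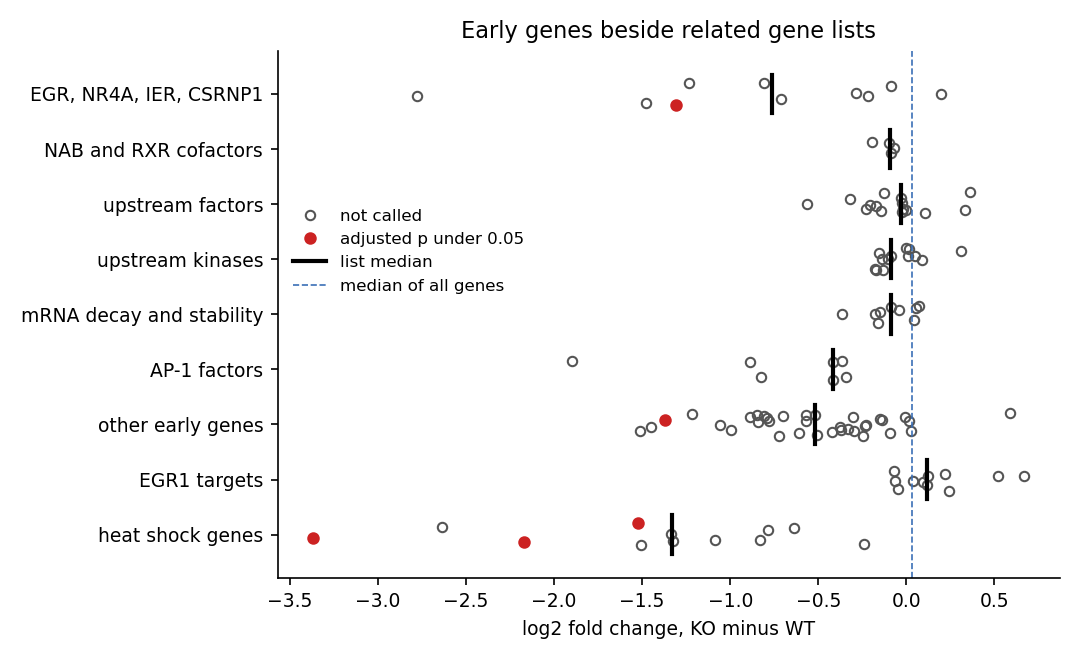
The plot gives the log2 fold change, KO minus WT, of every tested gene of the early gene group and of 8 related lists, with filled circles for called genes, a bar at each list median and a dashed line at the median of all genes (0.03). Other early genes (median -0.52), AP-1 genes (-0.41) and heat shock genes (-1.33) lie to the left of 0, while upstream factors, kinases, decay factors and cofactors lie close to 0 and EGR1 targets slightly to the right (0.12).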

How the data were processed

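RNA-seq libraries of lung ECs from 3 WT and 3 leene-KO mice or pools were analysed. The authors deposited raw read counts per gene, made by alignment with STAR 2.5.4b and counting with featureCounts (Subread 2.0.0) on the Ensembl release 84 annotation of GRCm38, on the strand of the library kit. Multi-mapped reads were not counted. Symbols came from GENCODE M21 (47224 of 47729 genes).

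Genes were filtered with filterByExpr, scaled by TMM and tested with edgeR 4.0.16 (R 4.3.3; glmQLFit and glmQLFTest, genotype as the only term, all 6 libraries, Benjamini-Hochberg adjustment over 14625 genes, threshold 0.05). The biological coefficient of variation was 0.256. Log2 CPM used a prior count of 2. P-values measure the spread between libraries, and an exact permutation test of 3 against 3 cannot go below p = 0.1. Every pair of libraries differed by more than counting error (chi-square of 40.3 or more for each degree of freedom). The test was first tried on simulated counts.

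The genes and lists were chosen with earlier results of these data known. Named genes are the 10 early genes, called genes and the 3 largest absolute log2 fold changes of each related list, and the 5 genes most alike by each measure. Genes of these lists outside that rule (Srf, Zfp36, Gadd45a, Nab2, Csrnp3, Egr4, Rxrg, Arc, Fosl1 and Fos) were named after their values were seen. So were Cx3cr1 and the markers Kdr, Tagln, Acta2, Myh11, Cnn1, Pdgfrb and Cspg4, and smooth muscle and pericyte markers were then summed apart. Promoter windows are from RefSeq (GRCm38.p6). Gene structure and 3′ UTRs are from the longest coding transcript of GENCODE M21. Alternatives were DESeq2 1.42.0, RLE and total-count scaling, no filter, at least 10 counts in every library, the replicate number as a block, and each library left out in turn.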

Additional observations from a re-analysis of the deposited data

How the results depend on the processing

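The median log2 fold change of the 10 early genes was -0.76 and lay between -0.92 and -0.71 under the alternatives with 6 libraries (Egr3 drops out where 10 counts are asked of every library), and between -0.97 and -0.53 with 1 library left out (-0.53 without WT replicate 2, where Nr4a3 and Nr4a2 were highest). Of 119 alternative values of single early genes, 109 were negative. Of the 119, 113 kept their sign and moved by less than the spread between replicates, and 4 kept it and moved by more. The other 2 turned sign and were labeled so whatever the size of the move. Those that turned were Egr1 without WT replicate 3 (-0.070) and without KO replicate 2 (-0.0088), with a range of -0.070 to 0.48 over the left-out libraries. Total counts gave -1.47 for Csrnp1, -0.27 for Ier2 and -0.46 for Ier5, and shifted the median of all genes to -0.13. With 1 library left out Egr3 ran from -2.26 to -1.21.

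The count of called genes depended on the processing. It was 16 over all genes, 185 with DESeq2, 26 with RLE, 123 with total counts and 152 without a filter (65 lower and 87 higher), and between 0 and 791 with 1 library left out. It was 791 without WT replicate 2 (131 lower and 660.0 higher) and 0 without any 1 KO library, where 986 to 1112 genes had an unadjusted p under 0.05. In the related lists it was 4, then 22 with DESeq2, 8 with RLE, 12 with total counts and 18 without a filter, and between 0 and 22 with 1 library left out. Of the early genes 1 was called, 3 with DESeq2, total counts, no filter or without WT replicate 2, and 0 without WT replicate 3 or any 1 KO library.

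Deviations from the group means had r of -0.08, 0.22 and 0.01 between same-numbered WT and KO libraries. Libraries with unlike numbers had r from -0.18 to 0.19. With so few libraries, whose deviations are not independent, these values cannot show if the numbers pair the samples. With the replicate number as a block the early gene median was -0.74, no gene was called (0 over all genes, with 1776 at an unadjusted p under 0.05, and 0 in the related lists). Depth limits Egr3, with 4 to 38 counts in a library.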

Other observations

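A pair of early genes that the filter on low counts removed stood out in a single library. Fosl1, which encodes an AP-1 factor, had 6, 59 and 1 counts in WT replicates 1, 2 and 3 and 4, 1 and 0 counts in KO replicates 1, 2 and 3. Arc, a synaptic early gene, had 7, 29 and 10 counts in WT and 5, 7 and 7 counts in KO. WT replicate 2 was thus the highest library for both, as it was for Nr4a3, Nr4a2, Nr4a1, Egr2 and Egr3. Fos was also highest there, at 8.47, 14.3 and 5.67 CPM in WT and 3.65, 7.76 and 9.93 CPM in KO. These genes were named after their values were seen, and no test was made.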
